A study of Mus musculus with 5 samples.

Results

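Chemokines are small secreted proteins that attract leukocytes, and chemokine receptors are the G protein-coupled receptors that bind them. The ligands are named by the spacing of their conserved cysteines as CCL, CXCL, XCL or CX3CL proteins, and the receptors by the ligands they take. In bone marrow the CXCL12-CXCR4 pair keeps stem and progenitor cells in their niche, CCR2 guides monocytes out into blood, and CXCR2 does the same for neutrophils. The genes described here are those of the deposited tables whose symbol begins with Ccr, Cxcr, Ccl or Cxcl and a digit, together with Cx3cr1, Cx3cl1, Xcr1, Xcl1, Ccrl2 and Il8rb. Pseudogenes with the suffix -ps were left out. The rule took 58 of the 31626 genes, of which 38 encode ligands and 20 encode receptors. Il8rb is the older symbol of Cxcr2, and Cxcr7 that of Ackr3.

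The libraries were made from mouse common myeloid progenitors of strain C57Bl/6 with floxed Mll1, into which the retroviral vector MSCV-MN1-IRES-GFP had brought the leukaemia gene MN1 together with GFP. The 2 Mll1 knockout libraries, labelled MLL1 -/-, came from cells transduced with Cre. The 3 control libraries, labelled MLL1 flox/flox, came from cells transduced with a control. All cells were grown in M3234 medium with serum, IL3, IL6 and SCF, and were sorted on day 7. Mll1, now called Kmt2a, encodes a histone H3 lysine methyltransferase. The comparison asks how expression differs once it is lost. Cre-treated cells with intact Mll1 were not analysed here, so exposure to Cre and loss of Mll1 cannot be told apart. The labels do not say whether libraries came from separate mice or cultures, so p-values measure the spread between these libraries, which may be technical. In bulk RNA, fewer cells of a type and less RNA per cell cannot be told apart.

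Values are FPKM, that is sequenced fragments per unit of gene length, scaled for library depth. Mll1 itself stood at 6.22 and 5.32 FPKM in the knockouts, against 9.67, 7.28 and 7.19 FPKM in the controls (exact permutation test, two-sided, p = 0.1, the smallest that 10 splits allow). A value over the whole gene does not measure the floxed part alone. Of all genes, 11780 had at least 1 FPKM in at least 2 libraries and were tested with limma, and 1153 of them were called at a Benjamini-Hochberg adjusted p under 0.05. Mll1 itself was not among the 1153 (limma adjusted p = 0.158). With control replicate 1, 2 or 3 left out the count was 3612, 117 or 239. With knockout replicate 1 left out it was 5, and with knockout replicate 2 left out limma called 0 genes, with 1595 at an unadjusted p under 0.05. In both of these fits the lone knockout library is assumed to vary as the controls do. Control replicate 1 stood apart. Across tested genes its log2 values correlated with those of control replicates 2 and 3 at 0.949 each, against 0.970 between those controls and 0.976 between the knockouts. The summed FPKM of 13 neutrophil markers was 22459.5 and 20725 in the knockouts, against 6437, 822 and 1082 in control replicates 1, 2 and 3. The sum of 12 monocyte markers was 666 and 559 FPKM in the knockouts, against 654, 126 and 121 FPKM in the controls. S100a8 and S100a9, which encode calprotectin, made up 77.6% to 97.9% of the neutrophil sums. Without them the sum of the other 11 was 480 and 468 FPKM in the knockouts, against 372, 184 and 190 FPKM in the controls. Of 48 marker genes tested 8 rose (Lcn2, Mpo, Gata2, Il1rl1, Mcpt8, Alas2, Gata1 and Klf1) and 3 fell (Irf8, Cd34 and Itgb3), or 22.9% beside 9.79% of all genes, with limma adjusted p from 0.00522 to 0.0469. Irf8 passed the filter through the controls alone. Alas2 needed the knockouts to pass it, with control values of 1.03, 0.780 and 0.558 FPKM. The progenitor marker Cd34 averaged 214 ± 3.42 FPKM in the knockouts and 624 ± 53.2 FPKM in the controls, while Mpo, of the same list, averaged 2447 ± 88.0 FPKM in the knockouts and 924 ± 331 FPKM in the controls. Summed over their lists, B cell markers reached at most 2.86 FPKM, T and NK cell markers 7.59 FPKM and stromal and endothelial markers 2.99 FPKM in any library, whereas erythroid markers reached 48.4 FPKM, megakaryocyte markers 89.4 FPKM, dendritic markers 103 FPKM and mast cell and basophil markers 1185 FPKM.

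Most of the chemokine system was silent or nearly so in these cells, while its leading receptors for myeloid cells, Ccr2, Cxcr4 and Il8rb, were all detected in every library. Of the 58 genes, 17 passed the filter, 30 were above 0 in at least 1 library without passing it, and 11 were listed at 0 in all 5 libraries. The 11 were Ccl8, Ccl11, Ccl19, Ccl20, Ccl21a, Ccl21b, Ccl21c, Ccl26, Ccl28, Cxcl13 and Ccr8. Ccl21a, Ccl21b and Ccl21c are near-identical copies, so reads that map to more than 1 of them may not have been counted. Summed over the 38 ligand genes, the level was 144 and 166 FPKM in the knockouts, against 208, 154 and 185 FPKM in the controls. Summed over the 20 receptor genes, it was 41.5 and 40.9 FPKM in the knockouts, against 57.0, 34.8 and 34.4 FPKM in control replicates 1, 2 and 3. For receptors the knockout sums lay between those of the controls. Ccl9 was the most abundant ligand gene in every library, with 47.6% and 42.0% of the ligand sum in the knockouts, against 53.4%, 62.5% and 52.3% in the controls. The most abundant receptor gene was Cxcr4 in both knockouts, Cxcr4 in control replicate 1 and Ccr2 in control replicates 2 and 3.

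**Figure D1:**
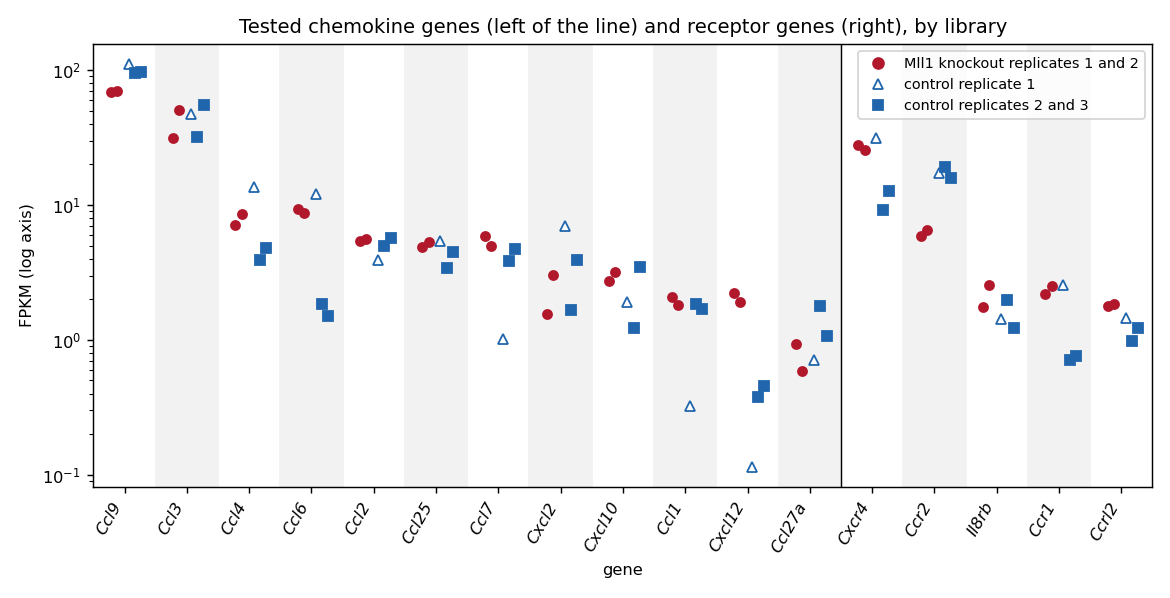
FPKM (log axis) of the 17 tested genes in each library, with ligands left of the line and receptors right of it, each ordered by mean level. Circles are the Mll1 knockout libraries, the open triangle is control replicate 1 and squares are control replicates 2 and 3. Both knockouts lie below every control for Ccl9 and Ccr2 and above every control for Ccl7, Cxcl12 and Ccrl2.

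Of the 17 tested genes, Cxcl12 rose in the knockouts and Ccr2 and Ccl9 fell, which is 17.6% of them, beside 9.79% of all genes tested. By direction, 1 of 17 rose beside 3.82% of all genes, and 2 of 17 fell beside 5.97%. Cxcl12, the gene that rose, is among the 17 through the knockout libraries alone, since no control reached the filter. At an unadjusted p under 0.05 the count was also 3 of 17, beside 3511 of all 11780 genes tested, so by that measure the share was not raised. The libraries of the groups did not overlap for 5 of the 17, beside 52.4% of all genes tested. The median log2 change was 0.30 over the 17 and -0.028 over all genes tested. The count depended on the libraries. It was 7 without control replicate 1, 1 without control replicate 2 and 1 without control replicate 3. Without knockout replicate 1 or knockout replicate 2 limma called 0 of the 16 genes then tested, with 2 at an unadjusted p under 0.05 in each case.

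Among the receptors, Ccr2 was lower in the knockouts. CCR2 is the receptor of CCL2, CCL7 and CCL12 and marks inflammatory monocytes and part of the myeloid progenitors. Ccr2 stood at 5.93 and 6.59 FPKM in the knockouts, against 17.4, 19.2 and 15.9 FPKM in the controls. Both knockouts lay well below the lowest control, and the knockout mean was 2.79-fold lower. The log2 change was -1.35 ± 0.108 (SE, limma adjusted p = 0.00852). Its deposited values stand in ratios of whole numbers, the smallest of which are 644 and 714 reads in the knockouts, against 1852, 2052 and 1661 in the controls. The fall was as large with control replicate 1 left out, at -1.35. With knockout replicate 1 left out the log2 change was -1.28 and the adjusted p 0.119. With knockout replicate 2 left out they were -1.41 and 0.123, the spread in both fits coming from the controls alone, and over all 14 alternatives it ran from 0.00573 to 0.123. Beside it, the monocyte transcription factor gene Irf8 stood at 0.778 and 0.826 FPKM in the knockouts, against 4.82, 5.67 and 4.58 FPKM in the controls (limma adjusted p = 0.00765). Irf8 passed the filter through the controls alone. The myeloid lysozyme gene Lyz2 averaged 264 ± 51.4 FPKM in the knockouts and 117 ± 150 FPKM in the controls. Of 9 monocyte markers tested only Irf8 was called, and their median log2 change was 0.39. Ly6c2 stood at 267 and 225 FPKM in the knockouts, against 173, 40.4 and 34.5 FPKM in the controls (limma adjusted p = 0.154). Like Ly6c2, Cd14 had both knockouts above every control. Like Irf8, Ctss and Klf4 had both knockouts below every control. The part that the mix of cells has in the fall of Ccr2 was not tested.

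Ligands that CCR2 takes were not called. Ccl2, which draws monocytes, stood at 5.44 and 5.57 FPKM in the knockouts, against 3.88, 4.98 and 5.69 FPKM in the controls (limma adjusted p = 0.529). Ccl7, a ligand of CCR1, CCR2 and CCR3, stood at 5.85 and 4.98 FPKM in the knockouts, against 1.02, 3.86 and 4.69 FPKM in the controls (limma adjusted p = 0.350). Its knockout values lay above every control, but control replicate 1 set most of the difference: without that library the log2 change was 0.28 instead of 0.74. Ccl12 reached 0 and 1 read in the knockouts, against 4, 1 and 0 reads in the controls, too few to compare.

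Cxcr4, the receptor that retains progenitors in marrow, was as high in control replicate 1 as in the knockouts. It stood at 27.8 and 25.5 FPKM in the knockouts, against 31.3, 9.12 and 12.8 FPKM in the controls. The groups overlapped through control replicate 1, which held the highest value of all. The log2 change was 0.74 ± 0.503 (SE, limma adjusted p = 0.378). Without that library it was 1.23 ± 0.169 (limma adjusted p = 0.0159), which is 2.44-fold above the mean of control replicates 2 and 3. Over its alternatives the adjusted p ran from 0.0159 to 0.692.

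Cxcl12, the ligand of CXCR4, was low in all libraries and higher in the knockouts. It stood at 2.23 and 1.90 FPKM in the knockouts, against 0.114, 0.377 and 0.455 FPKM in the controls. Both knockouts lay above every control, with means of 2.07 ± 0.229 FPKM (SD, n = 2) and 0.315 ± 0.178 FPKM (SD, n = 3), a ratio of 6.55. The log2 change was 1.23 ± 0.181 (SE, limma adjusted p = 0.0247). Cxcl12 passed the filter through the knockout libraries alone. A pseudocount of 0.1 gave an adjusted p of 0.0526, leaving out control replicate 2 gave 0.0739 and control replicate 3 gave 0.061, and over the 11 alternatives it ran from 0.00913 to 0.116. With either knockout library left out the gene no longer passed the filter and was not tested. CXCL12 is made mainly by stromal and endothelial cells, and the summed markers of those cells were 2.09 and 1.48 FPKM in the knockouts, against 2.87, 2.99 and 2.93 FPKM in the controls, with Dcn and Lum listed at 0 in all libraries. Pdgfrb, a gene of pericytes and stroma, made up 78.7% to 94.2% of these sums. It stood at 1.84 and 1.23 FPKM in the knockouts and at 2.26, 2.81 and 2.75 FPKM in the controls (limma adjusted p = 0.108). The endothelial marker Kdr stood at 0.0780 FPKM in both knockouts, against 0.0177, 0.0182 and 0.0315 FPKM in the controls. Others of the list went the other way. The endothelial marker Cdh5 stood at 0 in both knockouts and at 0.00681, 0 and 0.00693 FPKM in the controls. Col1a2 stood at 0.0902 and 0.0702 FPKM in the knockouts, against 0.475, 0.132 and 0.104 FPKM in the controls. All 3 were below the filter. Cxcr7, an atypical receptor that removes CXCL12, stood at 0.167 and 0.177 FPKM in the knockouts, against 0.234, 0.116 and 0.173 FPKM in the controls, and was below the filter.

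The promoters of the 3 genes that this pair and Ccr2 form are shown because they differ in CpG content. The stretches are from RefSeq on build GRCm38.p6 and run from 250 bases before the start of the gene to 50 after it, while the FPKM were made on mm9. Capitals mark each CG dinucleotide. The Ccr2 stretch is chr9:124101933-124102232 on the plus strand and holds 1 CG. The Cxcl12 stretch is chr6:117168285-117168584 on the plus strand and holds 20. The Cxcr4 stretch is chr1:128592250-128592549 on the minus strand and also holds 20.
Ccr2: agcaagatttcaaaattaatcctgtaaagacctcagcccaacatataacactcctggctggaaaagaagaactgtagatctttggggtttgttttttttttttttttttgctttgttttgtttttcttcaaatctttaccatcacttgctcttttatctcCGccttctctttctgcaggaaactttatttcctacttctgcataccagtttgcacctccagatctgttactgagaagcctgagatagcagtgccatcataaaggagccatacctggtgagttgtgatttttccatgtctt
Cxcl12: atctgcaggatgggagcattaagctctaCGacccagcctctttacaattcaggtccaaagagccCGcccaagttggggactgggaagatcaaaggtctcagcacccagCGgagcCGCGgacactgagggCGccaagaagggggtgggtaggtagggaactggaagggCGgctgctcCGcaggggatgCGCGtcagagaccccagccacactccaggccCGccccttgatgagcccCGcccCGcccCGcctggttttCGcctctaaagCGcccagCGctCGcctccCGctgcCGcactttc
Cxcr4: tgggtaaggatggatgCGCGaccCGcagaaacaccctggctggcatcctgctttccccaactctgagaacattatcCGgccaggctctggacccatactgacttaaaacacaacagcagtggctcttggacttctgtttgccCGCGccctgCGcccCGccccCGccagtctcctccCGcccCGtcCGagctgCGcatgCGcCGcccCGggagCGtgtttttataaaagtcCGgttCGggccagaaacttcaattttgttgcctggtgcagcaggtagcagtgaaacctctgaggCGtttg
Over all 32851 promoters of the table the median was 7 CG dinucleotides, with quartiles of 3 and 20. Of the 58 genes, 42 were matched, with 48 promoters and a median of 4.5. Of these promoters 6 held at least 15 CG dinucleotides, which 34.6% of all promoters do, and 24 held fewer than 5, which 38.0% of all promoters do. The motif TTNNGNAA, a loose form of the C/EBP site searched on both strands, was in the Ccr2 and Cxcr4 stretches and in 40.7% of all promoters. The motif AGATAA, which the family of GATA factors binds and which was searched on both strands, was in the Ccr2 stretch and in 11.2% of all promoters. The motif GAGGAA, the core of a PU.1 site on either strand, was in none of the 3 stretches and in 28.3% of all promoters. Such a match is a string of letters and not a binding site.

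Ccl9 and Ccl6 encode CC chemokines of rodents that bind CCR1, and their genes lie near each other on chromosome 11. Ccl9 fell: it stood at 68.6 and 69.8 FPKM in the knockouts, against 111, 96.2 and 96.9 FPKM in the controls. Both knockouts lay below every control, and the knockout mean was 1.47-fold lower, with a log2 change of -0.54 ± 0.0924 (SE, limma adjusted p = 0.0333). The adjusted p was 0.00777 without control replicate 1, 0.0862 without control replicate 2, 0.0814 without control replicate 3. It was 0.276 when knockout replicate 1 was left out and 0.282 when knockout replicate 2 was. It was 0.0642 after quantile normalization and 0.0619 with no filter on low values, and the log2 change stayed between -0.59 and -0.47 over its 14 alternatives. Ccl6 did not follow Ccl9. It stood at 9.36 and 8.73 FPKM in the knockouts, against 12.1, 1.85 and 1.5 FPKM in the controls, so control replicate 1 lay above both knockouts and the other controls far below them. The smallest whole numbers in these ratios are 467 and 435 reads in the knockouts, against 592, 91 and 72 reads in the controls. The log2 change of Ccl6 was 1.15 ± 0.766 (SE, limma adjusted p = 0.373). Without control replicate 1 it was 1.91 ± 0.103 (limma adjusted p = 0.00346), and the knockout mean was 5.40-fold above the mean of control replicates 2 and 3. Over its alternatives the adjusted p ran from 0.00346 to 0.679.

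The promoters of this pair are shown because the genes differed and a part of the stretches is alike. How often other promoters share such a part was not measured. Both are from RefSeq on build GRCm38.p6, on the minus strand, at chr11:83578587-83578886 for Ccl9 and chr11:83593038-83593337 for Ccl6. Capitals mark the 3 exact runs of at least 10 bases that both hold in the same order.
Ccl9: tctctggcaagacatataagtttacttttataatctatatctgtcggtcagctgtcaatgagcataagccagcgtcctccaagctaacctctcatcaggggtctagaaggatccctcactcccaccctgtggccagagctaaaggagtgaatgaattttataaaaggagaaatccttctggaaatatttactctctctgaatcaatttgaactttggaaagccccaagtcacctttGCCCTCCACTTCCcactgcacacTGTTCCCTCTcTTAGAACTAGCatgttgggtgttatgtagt
Ccl6: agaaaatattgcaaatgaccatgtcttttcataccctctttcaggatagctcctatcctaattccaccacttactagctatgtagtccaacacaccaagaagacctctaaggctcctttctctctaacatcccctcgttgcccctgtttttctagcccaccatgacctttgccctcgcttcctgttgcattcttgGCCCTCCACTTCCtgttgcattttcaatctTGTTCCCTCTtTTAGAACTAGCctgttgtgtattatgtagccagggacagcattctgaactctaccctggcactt
A local alignment ran from base 233 to 299 of the Ccl9 stretch and from base 192 to 265 of the Ccl6 stretch, with 58 identical bases in 74 columns (78.4%). Each stretch holds 2 CG dinucleotides. The C/EBP motif TTNNGNAA was in the Ccl9 stretch and not in that of Ccl6, and these letters say nothing of which factor binds.

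Ccr1, the receptor of CCL3, CCL6 and CCL9 on neutrophils and monocytes, was likewise highest in control replicate 1 and lowest in the other controls. It stood at 2.17 and 2.52 FPKM in the knockouts, against 2.56, 0.711 and 0.759 FPKM in the controls. The smallest whole numbers are 220 and 255 reads in the knockouts, against 254, 71 and 74 reads in the controls. The log2 change was 0.60 ± 0.364 (SE, limma adjusted p = 0.328). Without control replicate 1 it was 0.95 ± 0.106 (limma adjusted p = 0.0107), and over its alternatives the adjusted p ran from 0.0107 to 0.683. In the fit without that library Ccr1 passed the filter through the knockouts alone. Ccl4, the chemokine MIP-1 beta, stood at 7.06 and 8.53 FPKM in the knockouts, against 13.5, 3.91 and 4.79 FPKM in the controls. Its log2 change was 0.24 ± 0.494 (SE, limma adjusted p = 0.787) and, without control replicate 1, 0.72 ± 0.137 (limma adjusted p = 0.0289), with a range of adjusted p from 0.0289 to 0.963. Ccl6, Cxcr4, Ccr1 and Ccl4 were thus the 4 genes called without control replicate 1 in addition to Cxcl12, Ccr2 and Ccl9. Of the 17 genes 5 then rose and 2 fell, which is 41.2% in all, beside 31.1% of the 11607 genes tested without that library, of which 12.4% rose and 18.8% fell. Of the 5 that rose, Cxcl12 and Ccr1 were in that fit through the knockouts alone.

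**Figure D2:**
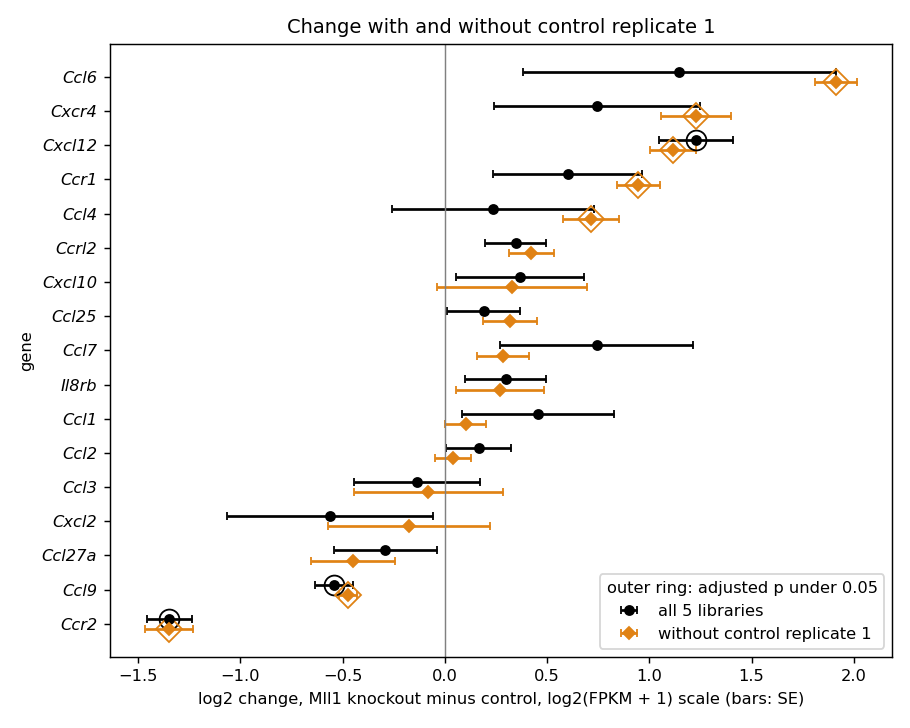
Log2 change of the 17 tested genes, as knockout minus control of log2(FPKM + 1), with bars for the SE. Circles use all 5 libraries and diamonds leave out control replicate 1. An outer ring marks an adjusted p under 0.05, which 3 genes reach with all libraries and 7 without control replicate 1.

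Control replicate 1 was the highest or the lowest of the 5 libraries for 11 of the 17 genes, beside 55.9% of all genes tested. It was the highest for Ccl4, Ccl6, Ccl9, Ccl25, Cxcl2, Ccr1 and Cxcr4 and the lowest for Ccl1, Ccl2, Ccl7 and Cxcl12. For Ccl6 it stood 7.23-fold above the mean of the other controls, for Ccr1 3.48-fold, for Ccl4 3.11-fold and for Cxcr4 2.86-fold. The sums of neutrophil and of monocyte markers given above were higher in that library than in the other controls too, but not each marker was. Ngp, which encodes a protein of neutrophil granules, reached 64.7 and 58.3 FPKM in the knockouts, against 106, 4.05 and 4.52 FPKM in control replicates 1, 2 and 3. Mmp8, the neutrophil collagenase, stood at 52.5 and 54.4 FPKM in the knockouts, against 38.7, 65.0 and 64.3 FPKM in the controls, and was lowest in control replicate 1. Klf4, a transcription factor gene of monocytes, stood at 0.471 and 1.09 FPKM in the knockouts, against 1.16, 8.68 and 7.99 FPKM in the controls. The part of neutrophils and monocytes in the levels of Cxcr4, Ccl6, Ccr1 and Ccl4 was not tested. For Ccr2 control replicate 1 was 0.993 times the mean of the other controls.

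**Figure D3:**
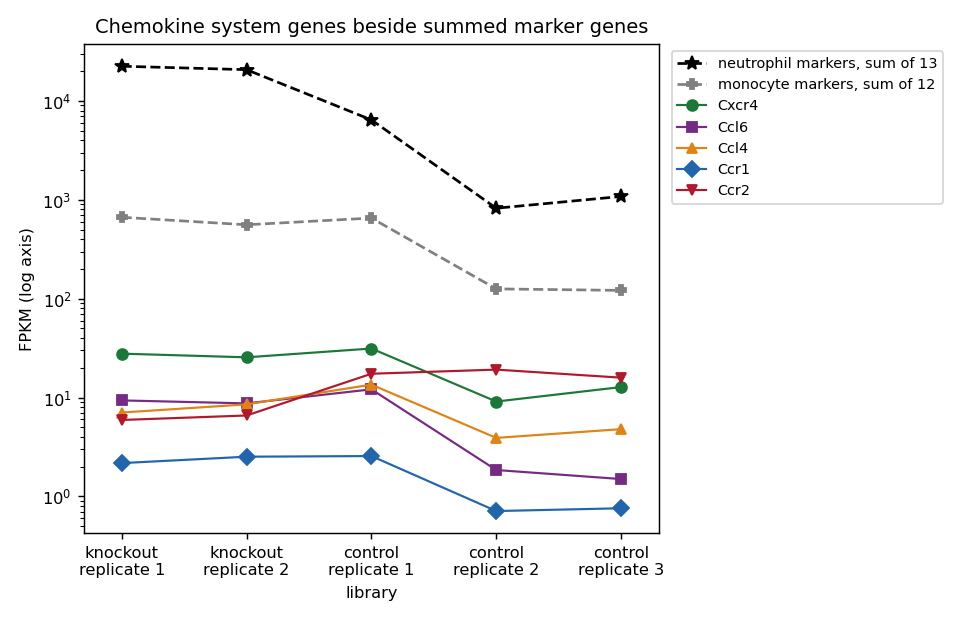
FPKM (log axis) of 5 genes of the chemokine system in each library, with the summed FPKM of 13 neutrophil markers and of 12 monocyte markers as dashed lines. Cxcr4, Ccl6, Ccl4 and Ccr1 are high in both knockouts and in control replicate 1 and low in control replicates 2 and 3, while Ccr2 is low in the knockouts and high in all controls.

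The other ligands that passed the filter were not called. Ccl3, a ligand of CCR1 that restrains the cycling of stem and progenitor cells, stood at 31.4 and 50.4 FPKM in the knockouts, against 47.4, 31.8 and 55.7 FPKM in the controls. Its groups overlapped fully, with a log2 change of -0.14 ± 0.307 (SE, limma adjusted p = 0.804). Cxcl2, a ligand of CXCR2 that draws neutrophils, stood at 1.55 and 3.02 FPKM in the knockouts, against 7.04, 1.66 and 3.92 FPKM in the controls (limma adjusted p = 0.507). Cxcl10, an interferon-induced ligand of CXCR3, stood at 2.74 and 3.19 FPKM in the knockouts, against 1.92, 1.22 and 3.46 FPKM in the controls (limma adjusted p = 0.482). These 3 genes varied as much within a group as between the groups.

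Ccl1, a ligand of CCR8, stood at 2.09 and 1.83 FPKM in the knockouts, against 0.324, 1.83 and 1.68 FPKM in the controls (limma adjusted p = 0.464), so only control replicate 1 was far from the rest. Ccl25, the ligand of CCR9, stood at 4.90 and 5.34 FPKM in the knockouts, against 5.41, 3.41 and 4.45 FPKM in the controls (limma adjusted p = 0.529). Ccl27a, a skin chemokine, stood at 0.932 and 0.583 FPKM in the knockouts, against 0.711, 1.77 and 1.06 FPKM in the controls (limma adjusted p = 0.492). In GENCODE M21 exons of Ccl25, Ccl27a and Cxcl10 overlap those of Elavl1, Il11ra1 and Art3 on the opposite strand. The kit was stranded, but the use of strand in the counting is not given in the sources used here, so reads of those partners may enter the values.

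Of the receptors that passed the filter, Il8rb and Ccrl2 remain. Il8rb, the neutrophil receptor CXCR2, stood at 1.74 and 2.54 FPKM in the knockouts, against 1.44, 1.99 and 1.24 FPKM in the controls (limma adjusted p = 0.369). The groups overlapped. The smallest whole numbers in its ratios are 142 and 207 reads in the knockouts, against 115, 160 and 97 reads in the controls. Ccrl2, an atypical receptor that presents chemerin and does not signal through G proteins, stood at 1.79 and 1.83 FPKM in the knockouts, against 1.46, 0.976 and 1.23 FPKM in the controls. Both knockouts lay above every control, but the log2 change of 0.35 ± 0.148 (SE, limma adjusted p = 0.196) was not called. Among all tested genes both knockouts lay above every control in 22.9% and below every control in 29.4%.

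Several receptors below the filter, and so outside the test above, had both knockouts below every control. Cx3cr1, the fractalkine receptor of monocytes and macrophages, stood at 0.218 and 0.253 FPKM in the knockouts, against 0.616, 0.726 and 0.445 FPKM in the controls, or, in smallest whole numbers, 31 and 36 reads in the knockouts against 86, 102 and 61 in the controls. Ccr9, the receptor of CCL25 on lymphoid and dendritic precursors, stood at 0.206 and 0.149 FPKM in the knockouts, against 0.444, 0.499 and 0.594 FPKM in the controls, or 18 and 13 reads against 38, 43 and 50. In both genes the knockouts lay below every control. Exons of Ccr9 overlap those of Slc6a20a on the opposite strand and those of Gm17200 on the same strand. Exons of Cx3cr1 overlap those of a transcript on the opposite strand.

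With no filter on low values, limma gave an adjusted p of 0.129 for Cx3cr1 and 0.0703 for Ccr9, so neither was called. In that setting Ccr2 had an adjusted p of 0.0263. Xcr1, the XCL1 receptor of cross-presenting dendritic cells, had 7 and 12 reads in the knockouts, against 17, 31 and 19 reads in the controls. Of the 8 dendritic cell markers 6 were found, and they summed to 86.7 and 80.9 FPKM in the knockouts, against 80.7, 103 and 86.2 FPKM in the controls, nearly all of it from Bst2, with Siglech listed at 0 in all libraries. Ccr7, which guides dendritic cells and lymphocytes to lymph nodes, stood at no more than 0.0596 FPKM in any library. Its knockouts, at 0.0146 FPKM each, lay below control replicate 2, at 0.0148 FPKM, only through the scale of the libraries. Divided by the worth of 1 read, given below, these values are equal. Among all genes below the filter and above 0, both knockouts lay below every control in 13.8% and above every control in 8.14%.

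The low receptors that were higher in the knockouts were fewer. Ccr10, a receptor of CCL27 and CCL28, stood at 0.390 and 0.244 FPKM in the knockouts, against 0.0497, 0.132 and 0.118 FPKM in the controls, or 24 and 15 reads against 3, 8 and 7. Ccr3, the receptor of eosinophils and basophils, had 6 and 9 reads in the knockouts, against 4, 0 and 1 reads in the controls. Both genes had knockout values above every control, and with no filter their adjusted p was 0.130 and 0.204. Basophil and mast cell markers, 8 of which were found, summed to 1170 and 1185 FPKM in the knockouts, against 552, 791 and 715 FPKM in the controls. Cpa3 made up most of each sum (limma adjusted p = 0.0581). It stood at 950 and 965 FPKM in the knockouts, against 432, 633 and 581 FPKM in the controls. Eosinophil markers summed to 4.72 and 5.17 FPKM in the knockouts, against 3.45, 3.87 and 2.85 FPKM in the controls. Most of that was Siglec5. The part of these cells in the level of Ccr3 was not tested. Cxcr3, the receptor of CXCL9 and CXCL10 on T and NK cells, stood at 0.398 and 0.199 FPKM in the knockouts, against 0.203, 0.147 and 0.207 FPKM in the controls, with overlap.

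**Figure D4:**
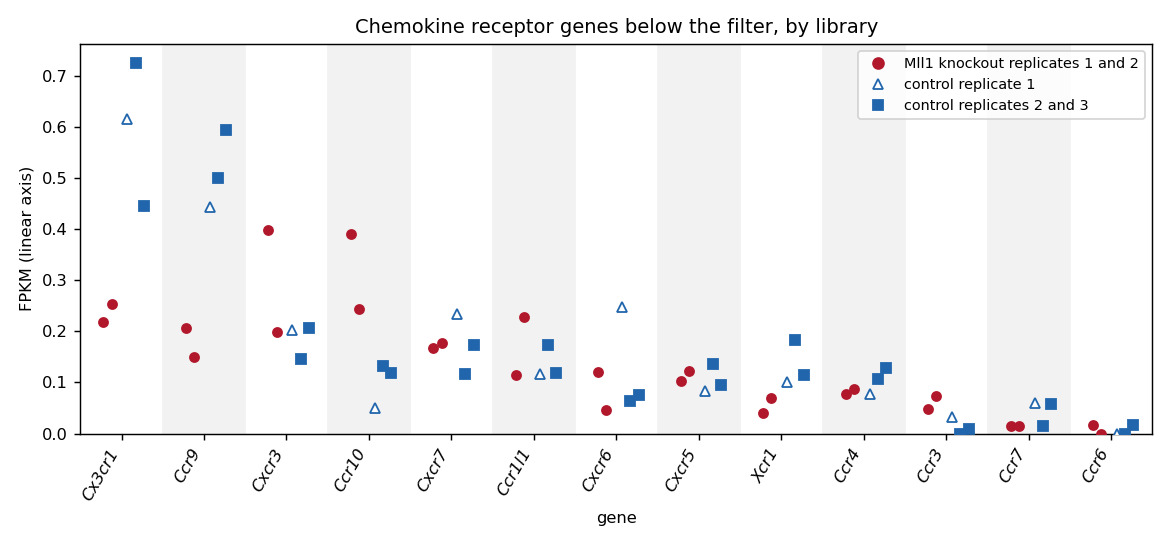
FPKM (linear axis) of 13 receptor genes that did not pass the filter and were above 0 in at least 1 library, ordered by mean level, with symbols as in the plot of tested genes. Both knockouts lie below every control for Cx3cr1, Ccr9, Xcr1 and Ccr7, and above every control for Ccr10 and Ccr3. For Ccr7 the gap to control replicate 2 comes only from the scale of the libraries.

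In none of the 16 ligand genes below the filter and above 0 did the groups stand apart, beside 13.8% (below every control) and 8.14% (above) of all such genes. Of the 13 receptor genes plotted, both knockouts lay below every control in 4 and above every control in 2. The 4 include Ccr7, whose gap to control replicate 2 comes only from the scale of the libraries. The difference between ligands and receptors was not tested. Cxcl3, a ligand of CXCR2, stood at 0.917 and 0.887 FPKM in the knockouts, against 1.59, 0.341 and 0.540 FPKM in the controls, or 30 and 29 reads against 51, 11 and 17. As for Ccl6, control replicate 1 was highest and the other controls lowest. Ccl5, which draws T cells and monocytes, stood at 0.304 and 0.456 FPKM in the knockouts, against 0.387, 0.154 and 0.158 FPKM in the controls, which is 4 and 6 reads against 5, 2 and 2. Ccl17, a ligand of CCR4, had 6 and 3 reads in the knockouts, against 4, 2 and 1 reads in the controls. Cxcl9, an interferon-induced ligand of CXCR3, stood at 0.166 and 0.467 FPKM in the knockouts and at 0.375, 0.0481 and 0 FPKM in the controls. Ccl5, Ccl17 and Cxcl9 were too low for the groups to be compared.

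The signalling chain below the receptors was well expressed, and a minority of it was called. Of 37 genes of G proteins and effectors 33 were tested, of which 1 rose and 3 fell, or 12.1% beside 9.79% of all genes tested, with a median log2 change of 0.051. Gng2, a G protein gamma subunit, averaged 24.0 ± 0.476 FPKM in the knockouts and 48.6 ± 6.87 FPKM in the controls (limma adjusted p = 0.0223). Plcb3, a phospholipase C activated by G proteins, averaged 10.9 ± 0.927 FPKM in the knockouts and 16.2 ± 0.519 FPKM in the controls (limma adjusted p = 0.0300). Pik3cg, the PI3-kinase that G protein beta-gamma dimers activate, averaged 18.3 ± 0.412 FPKM in the knockouts and 23.8 ± 0.271 FPKM in the controls (limma adjusted p = 0.0397). Vav1, an exchange factor for Rac, rose, with 85.8 ± 3.98 FPKM in the knockouts and 60.5 ± 1.13 FPKM in the controls (limma adjusted p = 0.0230). The most abundant of the list by the mean over all libraries, Cfl1 and Rac2, which act on actin, were not called (limma adjusted p = 0.674 and 0.0820).

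Of 13 genes that switch the receptors off 12 were tested, of which 2 rose, 1 fell and the rest were not called. That is 25% beside 9.79% of all genes tested, with a median log2 change of 0.050. Arrb2, the beta-arrestin that uncouples and internalises receptors, averaged 71.7 ± 1.16 FPKM in the knockouts and 36.9 ± 3.72 FPKM in the controls (limma adjusted p = 0.0153). Rgs10, which speeds the hydrolysis of GTP by G alpha subunits, fell, with 11.8 ± 0.222 FPKM in the knockouts and 27.1 ± 1.06 FPKM in the controls (limma adjusted p = 0.00618). Rgs14, of the same family, averaged 11.8 ± 0.128 FPKM in the knockouts and 8.39 ± 0.436 FPKM in the controls (limma adjusted p = 0.0397). Adrbk1, the receptor kinase GRK2, stood at 117 ± 0.315 FPKM in the knockouts and 92.8 ± 3.16 FPKM in the controls (limma adjusted p = 0.0518).

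Receptors for other attractants gave 2 rises and no fall among the 6 tested of 15, or 33.3% beside 9.79% of all genes tested and 3.82% that rose, with a median log2 change of 0.58. Ltb4r1, the leukotriene B4 receptor of neutrophils, averaged 26.6 ± 1.39 FPKM in the knockouts and 15 ± 2.71 FPKM in the controls (limma adjusted p = 0.0429). C3ar1, the receptor of complement fragment C3a, averaged 1.89 ± 0.115 FPKM in the knockouts and 0.671 ± 0.136 FPKM in the controls (limma adjusted p = 0.0375), and it passed the filter through the knockouts alone. The neutrophil marker sums given above were also higher in both knockouts than in every control. Among the controls those sums were highest in replicate 1. The control values of Ltb4r1, in replicate order, were 14.5, 17.9 and 12.6 FPKM. For C3ar1 they were 0.812, 0.541 and 0.661 FPKM. The part of neutrophils in these rises was not tested. Of 18 genes of the NF-kB pathway, which induces many chemokines, 15 were tested and 1 rose, or 6.67% beside the same 9.79%, with a median log2 change of 0.11. It was Il1b, the cytokine interleukin 1 beta, with 5.19 ± 0.00986 FPKM in the knockouts and 2.12 ± 0.411 FPKM in the controls (limma adjusted p = 0.0251). Nfkbia, the inhibitor that NF-kB itself induces, stood at 107 ± 3.18 FPKM in the knockouts and 93.5 ± 38.6 FPKM in the controls (limma adjusted p = 0.662). Of 12 chemokine kin outside the naming rule 8 were tested, and limma called 0 of them, with 3 at an unadjusted p under 0.05. These 3 were Cklf, Cmtm7 and Dpp4. Dpp4, the peptidase that cuts CXCL12, averaged 1.70 ± 0.284 FPKM in the knockouts and 0.514 ± 0.310 FPKM in the controls (limma adjusted p = 0.0786). Dpp4 passed the filter through the knockouts alone. The most abundant of the kin was Cmtm7, at 760 ± 21.7 FPKM in the knockouts and 615 ± 43.5 FPKM in the controls (limma adjusted p = 0.133). All SDs are over 2 knockout and 3 control libraries. Over all genes tested, 1153 of 11780 were called with every library and 3612 of 11607 without control replicate 1. Without control replicate 2 or 3 the counts were 117 of 11575 and 239 of 11629. Over all the gene lists, marker lists included, 21 of 120 genes tested were called with every library and 61 of 119 without control replicate 1. Of 120 list genes tested in each case, 5 were called without control replicate 2 and 7 without control replicate 3. Without either knockout library limma called 0 of them, with 27 and 26 at an unadjusted p under 0.05 without knockout replicates 1 and 2.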

How the data were processed

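RNA was sequenced in 5 libraries of MN1-transformed progenitors (2 Mll1 knockout, 3 control). The deposited values are FPKM made by the authors, with 1 value per Ensembl gene. Per the submitters' processing notes, CASAVA 1.8.2, GSNAP, SAMtools and Cuffdiff were used on build mm9. For the annotation, the use of strand and multi-mapping reads, the procedure is not given in the sources used here.

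As failed estimates, 16 genes with an overflow value in a library were left out. A gene was tested if it reached 1 FPKM in 2 or more libraries. The test was limma 3.58.1 (R 4.3.3), applied to log2(FPKM + 1) with a trend on intensity, and Benjamini-Hochberg adjustment over all 11780 genes. This scale understates the change of low genes. The procedure was tested on simulated data.

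Total depth is unknown. The worth of 1 read relative to control replicate 1 was 0.980, 0.981, 0.994 and 1.02 in knockout replicates 1 and 2 and control replicates 2 and 3, from genes under 2 FPKM. Values divided by it were whole multiples, within 0.006 of a read, for 31 of the 41 genes described that were above 0 in at least 3 libraries. Read numbers are the smallest such multiples, cover counting error only, and were not used in a test.

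The genes, gene lists and tests were chosen with earlier results of these data known. All genes that passed the filter were named, as were those of at least 0.3 FPKM in a library while Xcr1, Ccr3, Ccr7 and Cxcr7 were chosen after their values were seen. The values of 1 gene are not reported here. In other lists, called genes and at most 2 of the most abundant were named. Ngp, Mmp8, Klf4, Ly6c2, Cd14, Ctss, Kdr, Cdh5, Col1a2, Dpp4 and Cklf were chosen after their values were seen. Current symbols and chromosomes come from GENCODE M21, which matched 55 of the 58 gene IDs. Alternatives covered the pseudocount, filter, scaling, empirical Bayes step, replicate block and each library left out.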

Additional observations from a re-analysis of the deposited data

How the results depend on the processing

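Among the 58 genes, 3 were called with the settings used, and 2 or 3 under the other pseudocounts, filters, scalings and empirical Bayes settings. With the replicate number as a replicate block limma called 0 of the 17 tested among the 58 genes (4 at an unadjusted p under 0.05). It called 0 of the 120 tested genes of the lists (42 at an unadjusted p under 0.05). Of all 11780 genes tested it called 55 (2537 at an unadjusted p under 0.05). The labels give no shared source for equal numbers, and deviations from the group means correlated at 0.0370 for replicate 1 and 0.0123 for replicate 2. With no filter on low values 497 of 22571 genes were called in all and 9 of 170 in the lists. Leaving out 1 library gave 0 to 7 calls among the 58 genes, 0 to 61 in the lists and 0 to 3612 over all genes. Limma's count of 0 over all genes arose without knockout replicate 2, with 1595 at an unadjusted p under 0.05. The log2 difference of Mll1 ran from -0.51 to -0.29 as libraries were left out. The direction turned for Ccl3 (0.033 with the replicate block, and -0.47 to 0.20 with 1 library left out), for Ccl4 (-0.065 to 0.72 with 1 library left out), for Cfl1 (-0.10 after quantile normalization), for Nfkbia (-0.072 to 0.57 with 1 library left out) and for Mmp8 (0.0029 with median-ratio scaling, 0.090 with the replicate block, and -0.27 to 0.098 with 1 library left out), none of which was called with all libraries. Of all calls 39.0% were rises in the test used, against 47.7% with median-ratio scaling and 47.9% with quantile normalization. The cause of these shifts was not tested.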
